A study of Mus musculus with 3 samples.

Results

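Collagen chain genes, those with symbols of the form Col followed by a type number and a chain number, were read out in cultured synovial cells of arthritic mice. The array held 50 probes for 43 of these genes, among 19321 genes with a name, and 37 collagen genes were detected on all 3 arrays, among 15628 such genes. The cells came from D1BC mice, a DBA/1 line with a murine B7.1 (CD80) transgene driven by the rat type II collagen promoter and enhancer, which is expressed in chondrocytes and synovial membrane. Chronic arthritis had been induced in young adult mice with a low dose of bovine type II collagen in adjuvant, and this background is common to all 3 conditions. Cells were digested out of the pannus, the inflamed tissue that overgrows the joint, grown for several days in serum-containing medium, kept in it overnight again and then incubated for 48 h with CTLA-4-Ig (abatacept, the CTLA-4 extracellular domain fused to a human IgG Fc), with human IgG (hIgG) or with medium alone (vehicle). The labels call the cells primary fibroblast-like synoviocytes (FLSs), but isolated synovial cells of these mice are described with the study as CD45- FLSs together with CD45+ macrophages. Both proteins were added at 100 μg/ml according to the microarray methods, and the sample titles also have μg, while the treatment text of the labels has mg/ml. The age at which cells were taken, the number of mice and whether the 3 cultures shared mice were not given in the sources used here.

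Each condition was read on 1 array, so no spread between replicates could be measured, no test was possible, and the treatment cannot be told apart from the culture or the array. Values are normalized signals, the brightness of a spot after background subtraction, on a scale on which the median detected probe of an array is 25. They can be compared between arrays for 1 probe, not between probes. Differences are log2 ratios of these signals, so that 1.5-fold corresponds to 0.58. The arrays detected 84.0% (CTLA-4-Ig), 81.7% (hIgG) and 81.4% (vehicle) of 23473 probes. CTLA-4-Ig was set against each control, and hIgG against vehicle. The median over all 15628 genes was 0.09 (CTLA-4-Ig over hIgG), 0.11 (CTLA-4-Ig over vehicle) and 0.03 (hIgG over vehicle), and collagen ratios are read against these medians. Scaling the arrays on the probes detected on all 3 would shift each CTLA-4-Ig ratio by -0.10, so an order between CTLA-4-Ig and a control that rests on a smaller ratio turns with the scaling. The ratio of hIgG over vehicle had an SD across genes of 0.17 at a mean signal of at least 25, 0.23 at 5 to 25 and 0.41 below 5, so dim probes scatter most.

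Collagens are the main structural proteins of connective tissue. Their chains are hydroxylated in the endoplasmic reticulum, wind into triple helices, are secreted and trimmed, and then assemble into fibrils (types I, II, III, V, XI), basement membrane sheets (type IV), beaded filaments (type VI) or hexagonal nets (types VIII, X). FACIT collagens decorate the surface of fibrils, and transmembrane collagens anchor cells to the matrix. In the joint, FLSs make the collagenous matrix of the synovial lining, while type II collagen belongs to cartilage.

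The promoters of a few members the description turns on are shown from RefSeq (GRCm38.p6), each covering 250 bases before to 50 bases after the start of transcription. Such windows were found for 34 of the 43 genes. Col1a2 and Col5a1 are shown as chains of types I and V, Col3a1 as the bright fibrillar gene whose ratios ran the other way, and Col4a2 because it shares a promoter with Col4a1. Capitals in the Col1a2, Col5a1 and Col3a1 windows mark the GC box GGGCGG, read on both strands, and capitals in the Col4a2 window mark the 78 bases also covered by the window of Col4a1.
Col1a2, chr6:4505368-4505667, plus strand: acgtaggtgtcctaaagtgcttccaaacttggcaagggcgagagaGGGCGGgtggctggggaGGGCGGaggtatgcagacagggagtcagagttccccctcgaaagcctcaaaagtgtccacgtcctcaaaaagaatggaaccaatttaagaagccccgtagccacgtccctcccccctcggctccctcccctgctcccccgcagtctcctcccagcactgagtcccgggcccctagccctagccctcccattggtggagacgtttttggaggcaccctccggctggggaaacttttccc
Col5a1, chr2:27886175-27886474, plus strand: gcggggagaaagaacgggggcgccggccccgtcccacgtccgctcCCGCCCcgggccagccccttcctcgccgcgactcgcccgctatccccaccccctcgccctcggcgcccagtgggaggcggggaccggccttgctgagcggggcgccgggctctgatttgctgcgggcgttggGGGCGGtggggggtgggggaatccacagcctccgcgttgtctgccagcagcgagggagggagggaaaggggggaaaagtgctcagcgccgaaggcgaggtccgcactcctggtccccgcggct
Col3a1, chr1:45311288-45311587, plus strand: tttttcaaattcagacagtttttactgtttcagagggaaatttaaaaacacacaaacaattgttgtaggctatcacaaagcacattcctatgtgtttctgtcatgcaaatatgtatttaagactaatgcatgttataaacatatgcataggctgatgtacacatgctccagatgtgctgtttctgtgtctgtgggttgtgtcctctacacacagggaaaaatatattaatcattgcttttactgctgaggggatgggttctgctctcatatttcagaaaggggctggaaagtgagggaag
Col4a2, chr8:11312555-11312854, plus strand: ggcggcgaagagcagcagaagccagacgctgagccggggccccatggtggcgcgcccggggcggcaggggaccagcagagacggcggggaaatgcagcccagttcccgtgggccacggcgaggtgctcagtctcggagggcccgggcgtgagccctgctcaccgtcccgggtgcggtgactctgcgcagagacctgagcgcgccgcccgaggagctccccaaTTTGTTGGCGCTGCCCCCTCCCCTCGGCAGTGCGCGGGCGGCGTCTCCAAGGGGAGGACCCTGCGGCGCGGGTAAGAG
The Col1a2 window held 2 GC boxes, 205 and 188 bases before the start, the Col5a1 window held 2, 205 and 73 bases before it, and the Col3a1 window held 0. GGGCGG was found in 62.2% of the 37 collagen windows and in 35.7% of all 32851 windows in the table. CCAAT, on both strands, was found in 35.1% of the collagen windows and 37.4% of all, and the TATA box TATAAA in 13.5% and 13.6%. Col4a1 and Col4a2 are read from opposite strands, and their start sites lie 21 bases apart. These matches describe letters only.

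Across the 37 detected collagens, signals on the CTLA-4-Ig array were mostly higher than on the hIgG array and close to those on the vehicle array. Against hIgG, the collagen median with CTLA-4-Ig was 0.24, or 0.15 above that of all genes, with 28 genes above the all-gene median and 9 below, where 50% of all genes lie on either side. Against vehicle, the collagen median with CTLA-4-Ig was 0.14, or 0.03 above all genes, with 21 above and 16 below. With hIgG against vehicle it was -0.11, which is 0.13 below all genes, with 11 above and 26 below. The summed collagen signal was 16036 with CTLA-4-Ig, 14130 with hIgG and 15845 with vehicle, a sum set by its few brightest probes. These comparisons share arrays, so the first and last are not independent of each other: a low reading on the hIgG array alone enters both.

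The 15 collagens whose mean signal reached 25 are the best measured. Their median ratios were 0.28 with CTLA-4-Ig against hIgG, 0.10 with it against vehicle, and -0.14 with hIgG against vehicle. Of these 15, 13 lay above the all-gene median in CTLA-4-Ig over hIgG and 2 below it, where 44% and 56% of all 8293 genes of that brightness lay. In CTLA-4-Ig over vehicle 7 lay above it and 8 below, where 42.7% and 57.3% of these genes lay. In hIgG over vehicle 2 lay above it and 13 below, where 48.4% and 51.6% lay. The central 95% of genes of this brightness spanned -0.31 to 0.42, -0.31 to 0.47 and -0.34 to 0.34 in these comparisons, and 15 of the 15 collagens lay inside each range.

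**Figure D1:**
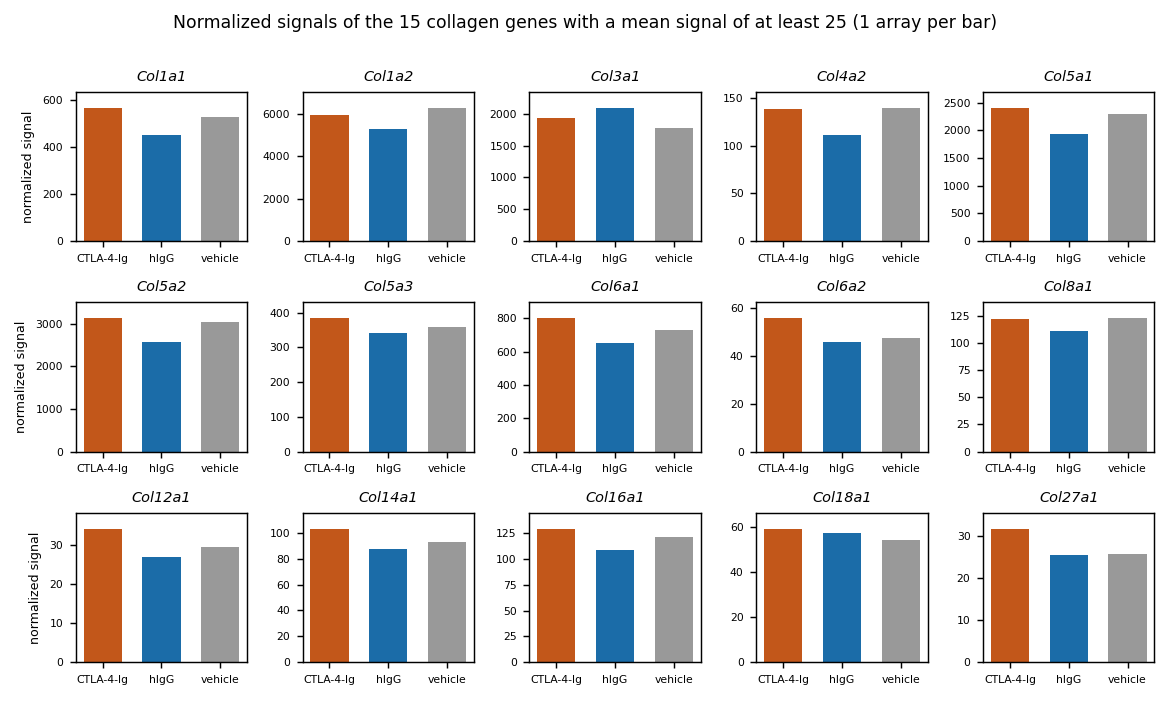
Normalized signals (y axes, starting at 0) of the 15 collagen genes whose mean signal reached 25 (bars from left: CTLA-4-Ig, hIgG, vehicle), 1 array per bar, so there are no error bars; for genes with several probes the bar is the geometric mean of the probes. Col1a1, Col5a1, Col5a2 and Col6a1 had their shortest bar on hIgG, whereas Col3a1 had its tallest there.

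Moves of 1.5-fold or more were few and were all among dim genes. In CTLA-4-Ig over hIgG, 2 collagens were at least 1.5-fold higher (Col4a1 and Col4a4), against 3.4% of all genes, and 1 was at least 1.5-fold lower (Col4a6), against 1.13%. In CTLA-4-Ig over vehicle, 2 were higher (Col6a4 and Col6a5), against 4.44%, and 1 was lower (Col4a6), against 0.992%. In hIgG over vehicle, 3 were higher (Col6a4, Col6a5 and Col4a6), against 2.06%, and 0 were lower, against 1.63%. The counts of 1, 2 and 3 are 2.7%, 5.41% and 8.11% of the 37 genes, so that 1 gene more or less shifts a share by 2.7 points. Col4a6 is at exactly 1.5-fold in hIgG over vehicle after rounding to 1 decimal, and 2 genes were higher there when the scanned intensities were used. In CTLA-4-Ig over hIgG the total was 1 in place of 3 under quantile, cyclic loess or jointly detected median normalization.

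**Figure D2:**
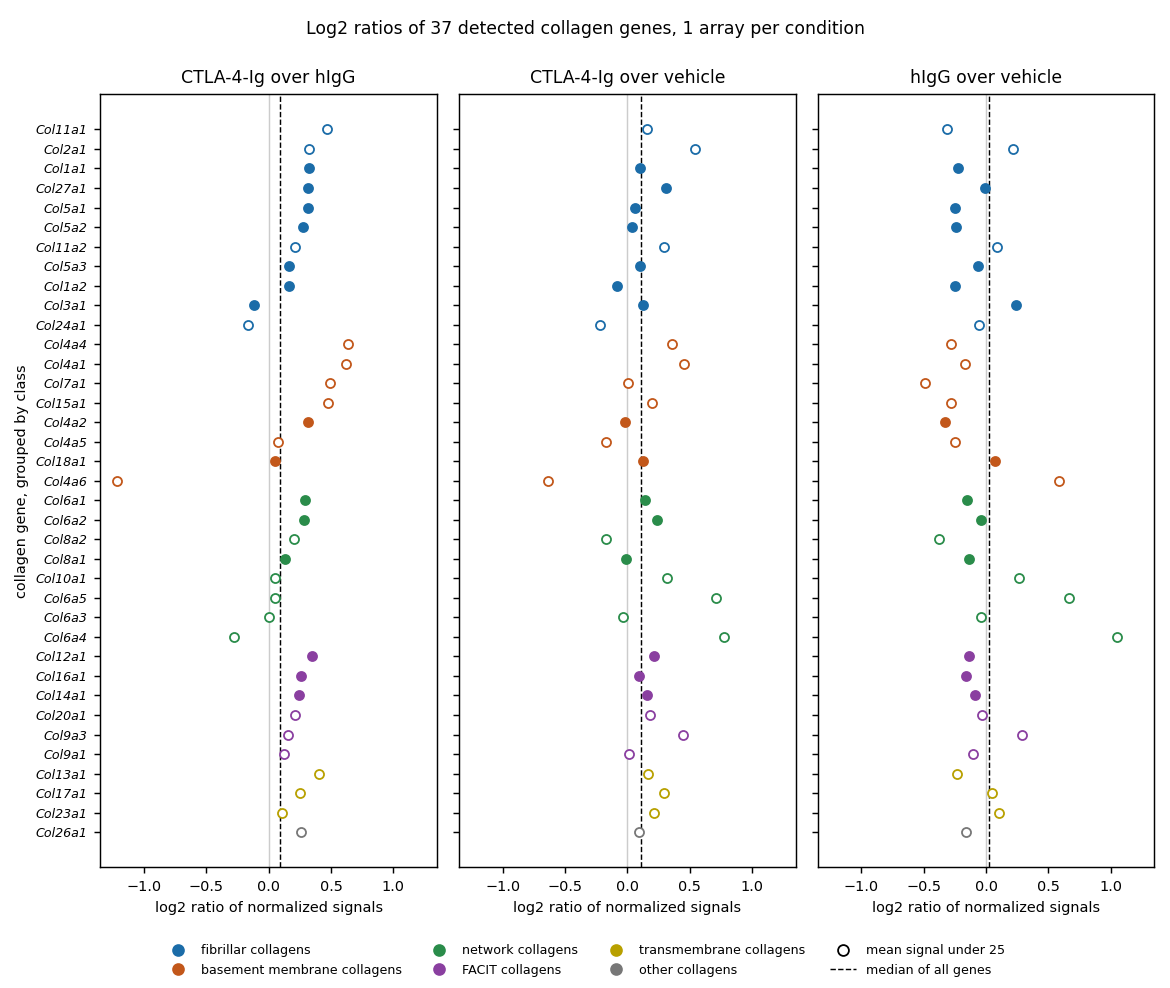
Log2 ratios of normalized signals (x axes) of the 37 detected collagen genes (rows, grouped by class) for CTLA-4-Ig over hIgG, CTLA-4-Ig over vehicle and hIgG over vehicle; filled points have a mean signal of at least 25, open points a lower one, and the dashed line is the median of all genes (0.09, 0.11 and 0.03). Most filled points lie right of the dashed line in the left panel and left of it in the right panel, and the points furthest out (Col4a6, Col6a4, Col6a5) are open.

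Of the fibrillar collagens, which form the load-bearing fibrils, 11 of 11 were detected. Their median ratios were 0.28 with CTLA-4-Ig against hIgG, 0.10 with it against vehicle, and -0.06 with hIgG against vehicle. Col1a1, the major chain of type I collagen, had a signal of 568 with CTLA-4-Ig, 454 with hIgG and 529 with vehicle. Col1a2, its partner chain, had 5919 with CTLA-4-Ig, 5291 with hIgG and 6273 with vehicle. Both type I chains were thus lowest on the hIgG array. The log2 ratio of CTLA-4-Ig over hIgG was 0.32 for Col1a1 and 0.16 for Col1a2, and against vehicle 0.10 and -0.08, both below the median of all genes (0.11). The order of CTLA-4-Ig and vehicle for Col1a1 turns under scaling on jointly detected probes. Under another background correction (normexp), Col1a2 was lowest on the vehicle array instead.

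Type V collagen forms the core on which type I fibrils nucleate. Col5a1 had signals of 2408 with CTLA-4-Ig, 1937 with hIgG and 2302 with vehicle. Col5a2 had 3126 with CTLA-4-Ig, 2578 with hIgG and 3042 with vehicle. Both were lower on hIgG and nearly level on the other arrays, with log2 ratios of CTLA-4-Ig over hIgG of 0.31 and 0.28, and against vehicle of 0.06 and 0.04. Col5a3, a chain of minor type V forms, had 384 with CTLA-4-Ig, 343 with hIgG and 358 with vehicle, a smaller gap of 0.16 against hIgG. The ratios of the 3 chains of type V spanned 0.15 in CTLA-4-Ig over hIgG, 0.06 in CTLA-4-Ig over vehicle and 0.19 in hIgG over vehicle. For comparison, the probes of 260 genes with several bright probes had median spans of 0.15, 0.19 and 0.14, with 95th percentiles of 0.38, 0.60 and 0.44. The chains thus spanned more than the median of such probes in hIgG over vehicle, but lay within the usual range of probe spans.

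Col3a1, the chain of type III collagen found in thin, pliable fibrils, ran the other way. Its brighter probe had signals of 5679 with CTLA-4-Ig, 5850.3 with hIgG and 5443 with vehicle. Its other probe had 653 with CTLA-4-Ig, 749.8 with hIgG and 574 with vehicle. Both probes were highest on hIgG, so Col3a1 was the bright fibrillar gene with a negative ratio of CTLA-4-Ig over hIgG, -0.12 as the mean of its probes, and with a positive ratio of hIgG over vehicle, 0.24. Neither value left the central range of genes of like brightness, and the probes differed in size, with hIgG over vehicle at 0.10 for the brighter and 0.38 for the other.

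Col2a1, the cartilage chain whose rat promoter drives the transgene of these mice, was dim, with signals of 23.4 with CTLA-4-Ig, 18.7 with hIgG and 16.1 with vehicle. It was highest with CTLA-4-Ig and lowest with vehicle, and stood 0.54 higher with CTLA-4-Ig than with vehicle. Of 9 chondrocyte markers 5 were detected (Sox9, Matn1, Matn3, Hapln1 and Chad), all with a mean signal under 25. Acan, Cnmd, Snorc and Ihh were undetected on at least 1 array. The 5 detected markers had a summed signal of 38.0 with CTLA-4-Ig, 31.9 with hIgG and 32.7 with vehicle. Their part in the Col2a1 values was not tested.

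Col27a1, a fibrillar collagen of developing cartilage, was read by 2 probes. The brighter had signals of 99.0 with CTLA-4-Ig, 88.4 with hIgG and 78.7 with vehicle, and the dim one had 10.2, 7.4 and 8.4. Both were highest with CTLA-4-Ig, but they disagreed on which of hIgG and vehicle was lower. Among the dim fibrillar genes, Col11a1, a type XI chain that shares fibrils with types II and V, had 5.12 with CTLA-4-Ig, 3.7 with hIgG and 4.6 with vehicle, the highest ratio of the class in CTLA-4-Ig over hIgG (0.47). Col24a1 had the lowest, -0.17, with 18.0 with CTLA-4-Ig, 20.2 with hIgG and 21.0 with vehicle. It was lowest on the CTLA-4-Ig array. Col11a2 was higher with CTLA-4-Ig than in either control by 0.21 and 0.29.

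Among the collagens of basement membranes and their anchors (type IV, type VII and the multiplexins Col15a1 and Col18a1) 8 of 9 were detected, 2 of them with a mean signal of at least 25. The median ratio was 0.39 with CTLA-4-Ig against hIgG, 0.06 with it against vehicle, and -0.26 with hIgG against vehicle. The last was the widest gap of hIgG among the classes over all detected members, most of them dim here. Ranked on bright members alone, the fibrillar collagens had the widest gap, a median of -0.22 over 7 genes. The basement membrane class then had -0.13 over its 2 bright genes, close to the network (-0.14) and FACIT (-0.13) collagens. Col4a2, a chain of the common type IV network, had 138 with CTLA-4-Ig, 112 with hIgG and 140.1 with vehicle. CTLA-4-Ig and vehicle were level here (-0.02) and hIgG stood 0.33 below vehicle. Col4a1, its partner chain with the shared promoter printed above, had 12.4 with CTLA-4-Ig, 8.1 with hIgG and 9.1 with vehicle. It was higher with CTLA-4-Ig than in both controls, by 0.62 over hIgG and 0.45 over vehicle, and its ratio lay just outside the central range of genes with signals of 5 to 25 in CTLA-4-Ig over hIgG (-0.37 to 0.56). The platform annotation assigns this probe to a non-coding transcript record of Col4a1. The ratios of both partner chains differed by 0.31 in CTLA-4-Ig over hIgG and 0.47 in CTLA-4-Ig over vehicle.

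Col4a4, a chain of the type IV network of kidney and other specialised basement membranes, had 5.14 with CTLA-4-Ig, 3.3 with hIgG and 4.0 with vehicle on 1 probe, and a second probe was undetected. It was 0.64 higher with CTLA-4-Ig than with hIgG. Col4a6 had the most extreme ratios of the class in the opposite direction, with 1.42 with CTLA-4-Ig, 3.3 with hIgG and 2.2 with vehicle. It was lowest with CTLA-4-Ig, by -1.22 against hIgG and -0.63 against vehicle. Its spots lay only 3.59, 7.39 and 4.60 SD of the blank spots above their mean with CTLA-4-Ig, hIgG and vehicle, where 2 SD is the limit of detection. Col7a1, the anchoring fibril collagen, was level with CTLA-4-Ig and vehicle and 0.49 lower on hIgG than on vehicle. Col15a1 and Col4a5 were also lowest on hIgG. Col18a1, the precursor of endostatin, had 59.4 with CTLA-4-Ig, 57.4 with hIgG and 54.6 with vehicle, and was nearly flat.

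**Figure D3:**
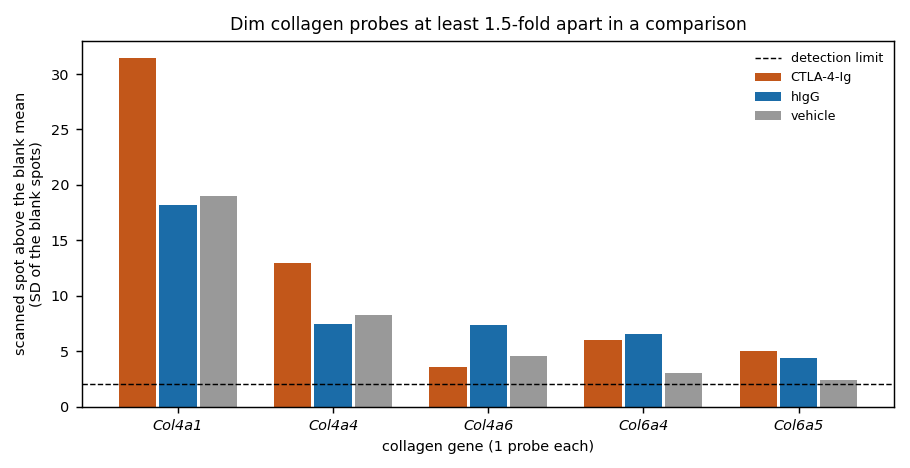
Height of the scanned spot above the mean of the blank spots, in SD of the blank spots (y axis), for the 5 collagen genes at least 1.5-fold apart in a comparison (x axis, 1 detected probe each), with bars for CTLA-4-Ig, hIgG and vehicle, and a dashed line at the detection limit of 2 SD. Col4a1 stands well clear of the limit on all 3 arrays, whereas Col6a5 on vehicle (2.40 SD), Col6a4 on vehicle (2.99 SD) and Col4a6 on CTLA-4-Ig (3.59 SD) lie close to it.

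The network-forming collagens with type VI had 8 of 9 genes detected and medians of 0.09 with CTLA-4-Ig against hIgG, 0.19 with it against vehicle, and -0.04 with hIgG against vehicle. Type VI collagen, the beaded filament around cells, is built from Col6a1, Col6a2 and Col6a3. Col6a1 had 801 with CTLA-4-Ig, 654 with hIgG and 728 with vehicle. Col6a2 had 55.6 with CTLA-4-Ig, 45.8 with hIgG and 47.2 with vehicle. Both were highest with CTLA-4-Ig, by 0.29 and 0.28 over hIgG and by 0.14 and 0.24 over vehicle. Col6a3 did not follow them, with 22.4 with CTLA-4-Ig, 22.3 with hIgG and 22.9 with vehicle.

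The minor type VI chains Col6a4 and Col6a5, which can replace Col6a3 in the trimer, were close to the detection limit. Col6a4 had 2.39 with CTLA-4-Ig, 2.9 with hIgG and 1.4 with vehicle on 1 probe, with the other undetected. Col6a5 had 1.97 with CTLA-4-Ig, 1.9 with hIgG and 1.2 with vehicle. Both were lowest on the vehicle array and were similar, or for Col6a4 somewhat lower, with CTLA-4-Ig than with hIgG. At log2 ratios of hIgG over vehicle of 1.05 and 0.66, Col6a4 was outside the central range of genes with signals under 5 (-0.78 to 0.84) and Col6a5 inside it.

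Col8a1, a short-chain collagen of vessel walls and remodelling tissue, was read by 3 probes with signals of 143, 141 and 90.0 with CTLA-4-Ig, 128, 128 and 84.5 with hIgG, and 163, 142 and 79.8 with vehicle. Each probe was slightly higher with CTLA-4-Ig than with hIgG (0.09 to 0.16, of which the lowest turns with the scaling on jointly detected probes), but they disagreed against vehicle (-0.20 to 0.17). Its partner Col8a2 was lowest on hIgG. Col10a1, the marker of hypertrophic chondrocytes, had 16.2 with CTLA-4-Ig, 15.6 with hIgG and 13.0 with vehicle. It was level with CTLA-4-Ig and hIgG (0.05) and lowest with vehicle.

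Of the FACIT collagens 6 of 9 with a probe were detected, with medians of 0.23, 0.17 and -0.10 for CTLA-4-Ig against hIgG and against vehicle, and for hIgG against vehicle. Col12a1, which links type I fibrils in tendon and ligament, had 34.3 with CTLA-4-Ig, 27.0 with hIgG and 29.6 with vehicle. Col14a1, which regulates fibril width, had 103 with CTLA-4-Ig, 87.1 with hIgG and 92.6 with vehicle. Col16a1 had 129.6 with CTLA-4-Ig, 108 with hIgG and 121 with vehicle. All 3 were lowest on hIgG, with log2 ratios of CTLA-4-Ig over hIgG of 0.34, 0.24 and 0.26. Against vehicle the ratios were 0.21, 0.16 and 0.09, and the last of these, for Col16a1, is below the median of all genes and turns under scaling on jointly detected probes. Col9a1, a chain of cartilage type IX collagen, had 10.0 with CTLA-4-Ig, 9.2 with hIgG and 9.9 with vehicle and was nearly flat, with the lowest ratio of the class (0.12). Col9a3 was highest with CTLA-4-Ig and lowest with vehicle, 0.45 apart. The 2 probes of Col20a1 disagreed: 1 had 3.30 with CTLA-4-Ig, 2.4 with hIgG and 2.1 with vehicle, and the other had 6.07, 6.2 and 7.4. Its mean ratios carry no direction.

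The transmembrane collagens were all dim, with 3 of 4 detected and medians of 0.25, 0.21 and 0.05 for CTLA-4-Ig against hIgG and against vehicle, and for hIgG against vehicle. Col13a1, a cell adhesion collagen, had 10.6 with CTLA-4-Ig, 8.0 with hIgG and 9.4 with vehicle, the largest ratio of the class over hIgG (0.40). Col23a1 had 4.51 with CTLA-4-Ig, 4.2 with hIgG and 3.9 with vehicle, the smallest (0.10). Col17a1, of hemidesmosomes, lay between them. Col26a1, in none of these classes, had 12.9 with CTLA-4-Ig, 10.8 with hIgG and 12.1 with vehicle, and was lowest on hIgG.

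The other 6 collagens were not detected on all arrays and have no ratio. Col4a3, Col6a6, Col9a2 and Col25a1 were undetected on all 3 arrays. Col19a1 was detected with hIgG alone, at 1.0, and Col22a1 with hIgG at 1.1 and with vehicle at 1.6.

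The rest of the collagen pathway was followed in 8 lists. The enzymes of chain hydroxylation and glycosylation (12 of 12 detected) had medians of 0.25 with CTLA-4-Ig against hIgG, 0.22 with it against vehicle, and 0.06 with hIgG against vehicle. P4ha2, a catalytic subunit of prolyl 4-hydroxylase, had 626 with CTLA-4-Ig, 468 with hIgG and 431 with vehicle, and was highest with CTLA-4-Ig. P4ha1, the other main catalytic subunit, had 126 with CTLA-4-Ig, 154 with hIgG and 139 with vehicle, and was lowest with CTLA-4-Ig. No member of this list of that brightness (a mean signal of 25 or more) was 1.5-fold apart in any comparison. Folding and secretion genes (8 detected of 9 with a named probe) had medians of 0.14, 0.05 and -0.10. Sec23a, a COPII coat protein, had 226 with CTLA-4-Ig, 181 with hIgG and 183 with vehicle, and Sec24d, another, had 222, 221 and 294. Procollagen processing genes (8 detected of 9 with a named probe) had medians of 0.13, 0.15 and -0.02. Pcolce2, an enhancer of C-propeptide cleavage, had 383 with CTLA-4-Ig, 299 with hIgG and 378 with vehicle, and Pcolce, its paralogue, had 1106, 1047 and 1151.

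Cross-linking genes (6 of 6 detected) had medians of 0.09, 0.06 and -0.10 for CTLA-4-Ig against hIgG and against vehicle, and for hIgG against vehicle. Lox, the lysyl oxidase that starts cross-linking of fibrils, had 1987 with CTLA-4-Ig, 1488 with hIgG and 1821 with vehicle, lowest on hIgG as for Col1a1 and Col5a1. Tgm2, a transglutaminase, had 142 with CTLA-4-Ig, 157 with hIgG and 150.1 with vehicle. Proteins that coat fibrils (14 of 14 detected) had medians of 0.21, 0.03 and -0.23. Prelp, a leucine-rich proteoglycan that binds type I collagen, had 121 with CTLA-4-Ig, 79.0 with hIgG and 155 with vehicle. It was lowest on hIgG, at -0.98 against vehicle, the widest gap among the pathway genes whose mean signal reached 25.

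Collagen receptors (10 of 10 detected) had medians of -0.02, -0.07 and -0.11. Lair1, an inhibitory collagen receptor of leukocytes, had 191 with CTLA-4-Ig, 249.8 with hIgG and 165 with vehicle, and was highest on hIgG (0.60 over vehicle). Collagen-degrading enzymes (10 of 12 detected) had medians of 0.21, 0.13 and 0.02. Mmp13, the main collagenase of the mouse joint, had 535 with CTLA-4-Ig, 763 with hIgG and 497 with vehicle, and was also highest on hIgG (0.62 over vehicle). The laminins, nidogens and other basement membrane partners (13 detected of 14 with a named probe) had medians of 0.07, 0.02 and -0.20. Lamb2, a laminin chain, had 310.1 with CTLA-4-Ig, 223 with hIgG and 298 with vehicle, whereas Lamc1, its partner chain, had 124, 141 and 144.

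**Figure D4:**
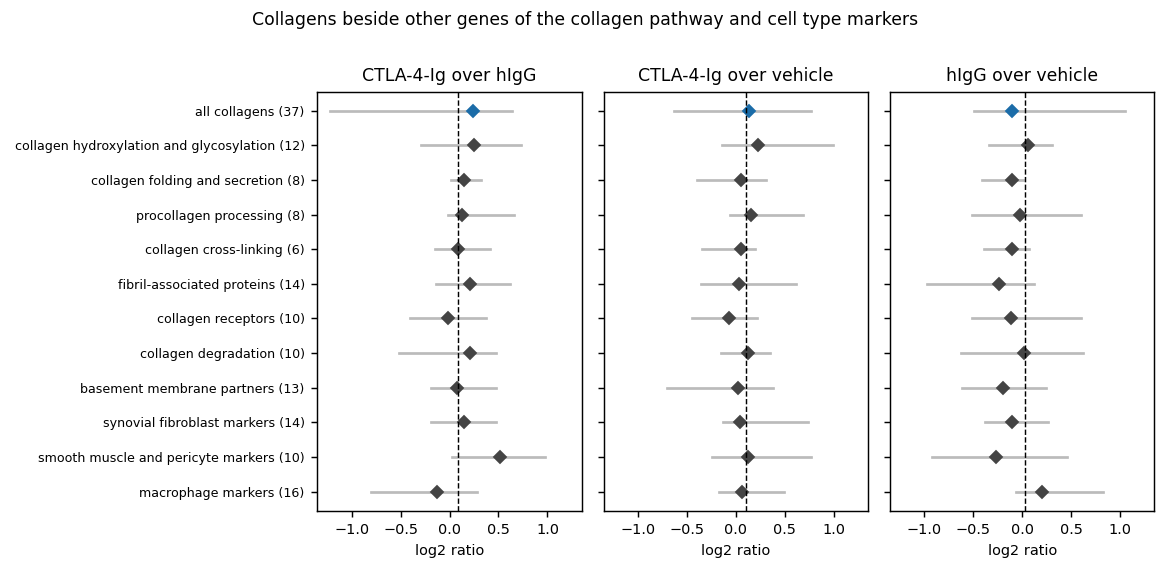
Median (diamond) and lowest to highest log2 ratio (grey line, x axes) over the detected members of each list (rows, number detected in brackets) for CTLA-4-Ig over hIgG, CTLA-4-Ig over vehicle and hIgG over vehicle, with the median of all genes as a dashed line; lines show the spread over genes, not an error. The collagens (0.24, 0.14 and -0.11) lie on the same side of the dashed line as the synovial fibroblast markers (0.15, 0.05 and -0.10) in the left and right panels, with the macrophage markers (-0.13, 0.07 and 0.20) on the other, while in the middle panel the collagens lie above the line and both marker lists below it.

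Markers of the cell types in the culture also differed between the arrays. The fibroblast-like label was checked on 15 synovial fibroblast markers, of which 14 were detected, including Pdpn, Pdgfra, Thy1 and Prg4. Their median was 0.15 with CTLA-4-Ig against hIgG, 0.05 with it against vehicle, and -0.10 with hIgG against vehicle. Their summed signal, most of it from Vim, was 25290 with CTLA-4-Ig, 21697 with hIgG and 22518 with vehicle. Set against these markers in place of all genes, the collagen median was 0.10 higher for CTLA-4-Ig over hIgG, 0.09 higher for CTLA-4-Ig over vehicle and 0.00 apart for hIgG over vehicle. Macrophage markers (16 of 16 detected, with Cd68, Csf1r and Lyz2 among them) had medians of -0.13, 0.07 and 0.20. Their summed signals, most of them from Lyz2, were 52344 with CTLA-4-Ig, 51831 with hIgG and 46295 with vehicle. In hIgG over vehicle 15 of the 16 lay above the all-gene median, and in CTLA-4-Ig over hIgG 13 lay below it. Smooth muscle and pericyte markers (10 of 10 detected) had medians of 0.51, 0.12 and -0.26, with summed signals of 3464 with CTLA-4-Ig, 2194 with hIgG and 3287 with vehicle, most of them from Acta2. Osteoblast markers (5 detected of 6 with a named probe) had medians of -0.03, 0.21 and 0.08, and endothelial markers (6 of 8) 0.13, 0.13 and -0.14. T cell markers (5 detected of 7 with a named probe) had 0.23, 0.33 and 0.29, and keratinocyte markers (3 of 8) 0.09, 0.26 and -0.11. Cd3e, Cd3g, Pecam1 and Cldn5 were not detected on all arrays, whereas Cd28 and Kdr had mean signals of 74.7 and 56.2. Cd3d, Cd4, Cd8a, Cd8b1, Cdh5, Tek, Tie1, Vwf and Emcn were detected on all 3 arrays, with mean signals under 25. The part of these markers in the collagen values was not tested. In such a mixed culture, fewer cells of a type and less RNA per cell cannot be told apart.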

How the data were processed

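RNA of cultured synovial cells was profiled on 3 single-colour mouse oligo arrays, 1 per condition, and each sample was placed by the treatment in its label. The authors labelled RNA with Cy5, and per the file headers the scans give a spot intensity beside a background value. The deposited table holds the normalized intensity of each detected probe, made by the authors by background subtraction and scaling of the median detected signal to 25. For hIgG and vehicle it is rounded to 1 decimal. The table could be rebuilt from the scanned intensities by subtracting the mean of the 384 blank spots (5% trimmed at each end) and setting detection at 2 SD above it: the same probes were detected, and all but 1 on each array agreed within 0.06.

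Log2 ratios were computed in Python 3.11.15 (pandas 2.3.3, numpy 2.4.6) for genes detected on all 3 arrays, with a gene's probes averaged on the log2 scale. Figures were drawn with matplotlib 3.10.9, and alternative normalizations run with limma 3.58.1 in R 4.3.3. Names came from the platform annotation (20690 of 23473 probes). Of these, 20556 were matched by gene identifier to RefSeq (GRCm38.p6), and 0 symbols changed. Col21a1 and Col28a1 had no probe under their names. The ratio and fold counts were tested on simulated data.

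The members and all lists were chosen with earlier results of these data known. Signals are given for collagens with a mean of at least 25, those 1.5-fold apart in a comparison, Col1a1, Col2a1 and Col10a1, the extremes of each class and genes with discordant probes. In each pathway list, members at least 1.5-fold apart with a mean signal of at least 25 are given, or else the highest and lowest of that brightness in CTLA-4-Ig over hIgG. Values for Col6a3, Col7a1, Col8a2, Col9a3, Col11a2, Col15a1, Col4a5 and Col17a1 were added after they were seen. Alternatives were the scanned intensities, quantile, cyclic loess, 75th percentile and jointly detected median normalization, normexp, other signal minimums and folds, undetected probes set to 1, a gene's brightest probe alone and updated symbols. Setting the collagens against the synovial fibroblast markers and a minimum mean signal of 5 were chosen after seeing the data. Marker lists of 5 other cell types (chondrocytes, osteoblasts, endothelium, T cells and keratinocytes) were read as well.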

Additional observations from a re-analysis of the deposited data

How the results depend on the processing

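No paired analysis was possible because a single culture was read per condition. The collagen median relative to all genes (0.15, 0.03 and -0.13) kept its direction under each alternative run for CTLA-4-Ig over hIgG and for hIgG over vehicle. For CTLA-4-Ig over vehicle, 0.03 was too small to judge a direction, smaller than the standard error across the collagen genes (0.04). This error describes scatter among genes on the same arrays, not among cultures, so it gives no certainty to the other medians. The size moved under a few alternatives. For CTLA-4-Ig over hIgG it was 0.21 at a mean signal of at least 25, 0.00460 under normexp and 0.0957 against the synovial fibroblast markers. For CTLA-4-Ig over vehicle it was 0.0928 against those markers. For hIgG over vehicle it was -0.00330 against those markers, -0.00160 under normexp and -0.063 with undetected probes at a floor of 1. The number of collagens 1.5-fold apart in CTLA-4-Ig over hIgG was 1 under cyclic loess, quantile and jointly detected median normalization, and 0 at a mean signal of at least 25. It was 1 at 2-fold and 10 at the lower fold threshold tried. In CTLA-4-Ig over vehicle it was 0 at that minimum, 0 at 2-fold and 7 at that lower fold, and in hIgG over vehicle 0, 1 and 6. In hIgG over vehicle Col4a6 is exactly 1.5-fold apart after rounding, and the count from the scanned intensities was 2. Scaling on jointly detected probes moved the all-gene median by -0.10 in both comparisons of CTLA-4-Ig.

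Normexp turned the sign of the ratios of Col4a6 (0.0128), Col6a4 (-0.00699) and Col6a5 (-0.00899) in CTLA-4-Ig over vehicle. In hIgG over vehicle it turned those of Col6a4 (-0.00289) and Col6a5 (-0.00256). Relative to all genes, it also turned the medians of the FACIT (0.000187) and fibrillar (0.00185) collagens in hIgG over vehicle. The median of the transmembrane collagens relative to all genes turned in CTLA-4-Ig over vehicle (-0.00491). The scanner's background column follows the spot itself (r of 0.991 to 0.997 across probes within an array, a description), and the cause of these turns was not tested. Over all alternatives, 128 values of class medians stayed within the standard error of the ratios of the class's own members, 13 moved and 3 turned. The 128 include 15 each from 75th percentile scaling, scaling on jointly detected probes and updated symbols, which could not alter them. Of the ratios of named genes, 780 stayed within the SD of genes of like brightness, 43 moved and 5 turned. The 780 include 87 from updated symbols, which could not alter them either. A class median could count as turned only if its main value exceeded that standard error, and a gene only from 1.5-fold. Sign changes of smaller values are therefore among those that stayed or moved. Ratios of probes with a signal under 5 are limited most by their closeness to the blank spots.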

Other observations

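Ibsp, bone sialoprotein, a collagen-binding protein of mineralising bone and cartilage that was on the osteoblast list, had signals of 31.8 with CTLA-4-Ig, 14.1 with hIgG and 16.5 with vehicle, and was picked out after its values were seen. It was higher with CTLA-4-Ig than in both controls, by 1.17 against hIgG and 0.94 against vehicle on the log2 scale. The other 4 detected members of that list differed less and in no common direction: Bglap, osteocalcin, had 43.2 with CTLA-4-Ig, 41.8 with hIgG and 36.7 with vehicle, Sp7, an osteoblast transcription factor, had 5.91 with CTLA-4-Ig, 6.9 with hIgG and 5.1 with vehicle, Alpl, the alkaline phosphatase of mineralising cells, had 97.1 with CTLA-4-Ig, 99.0 with hIgG and 110.5 with vehicle, and Dmp1, a matrix protein of osteocytes, had 2.48 with CTLA-4-Ig, 3.7 with hIgG and 3.5 with vehicle. Fcgr1, a high-affinity IgG receptor of macrophages, had 235 with CTLA-4-Ig, 408 with hIgG and 231 with vehicle. It was highest with hIgG, at 0.82 over vehicle, the widest gap of the macrophage list.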
